A study of Arabidopsis thaliana with 3 samples.

Results

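The genes examined are 30 Arabidopsis genes of brassinosteroid synthesis, inactivation, perception and response, chosen by their known roles, although with earlier results of these data known, out of 27444 protein-coding genes on the nuclear chromosomes. The window of a gene ran from 3000 bp before its start to 1000 bp past its end, and a gene was called bound if any peak was centred in that window. All 30 were found in the TAIR10 annotation by symbol or synonym, and 9 of them were bound, by 10 of the 3552 peaks in the series. The peaks come from seq-DAP-seq of 1 complex, SEP3-AG(IAP1), in which the MADS TF SEP3 with a FLAG tag was paired with a chimera of AG, tagged with Myc, that carries the I domain of AP1. Both proteins were made in vitro, the complex was purified through one tag and then the other, and it was incubated with sheared genomic DNA of Arabidopsis seedlings. The 3 replicates are combined in a single consensus list, which gives the position of each peak and no height, read count or p-value. The spread between replicates and the depth therefore cannot be given from the list, no test over samples could be made, and all counts are descriptions. As the DNA was purified before binding, a peak describes binding to naked DNA and not the state of the gene in a flower.

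Brassinosteroids are the steroid hormones of plants and promote cell elongation, vascular development and fertility. The hormone is perceived at the cell surface by the receptor kinase BRI1 and its co-receptor BAK1, which leads to inactivation of the kinase BIN2 and lets the transcription factors BZR1 and BES1 act on their target genes. Among these targets are biosynthesis genes, which are repressed in a feedback loop, and genes for basic helix-loop-helix (bHLH) proteins that control growth.

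The sites below are the best CArG site of each of the 10 peaks, and they are shown because their differences order the peaks described afterwards. The CArG box is the motif of MADS TFs and in its canonical form reads CC, 6 A or T, and GG. A site was scored in bits, the log2 ratio of its probability under a matrix of 16 bp to that under the base composition of the peaks, with a matrix fitted to the peaks of the other chromosomes only. Each run is 30 bases of the plus strand of TAIR10, with the 10 bases aligned to the box in capitals.
BEE3, in the gene, chr1:27760360-27760389: gctcaagtttCCATAAATGGaaatatttcg
CPD, in the gene, chr5:1705484-1705513: agattatttaCCAAAAATGGgaaaattacc
PRE1, in the gene, chr5:15957875-15957904: gtaaacctatCCAAAAAAGGaaagaacaaa
IBH1, downstream, chr2:17910854-17910883: acttatttttCCCAAAAAAGaaaacacaca
DWF5, in the gene, chr1:18684283-18684312: tacaggtctaCTAAAATTGGaaactttagt
PRE1, upstream, chr5:15956006-15956035: caacaataatCCTTTTATAGaaaatatttg
BRL1, in the gene, chr1:20783426-20783455: cttttaatttCTTGAAAGAGtaagaatctt
BES1, in the gene, chr1:6689295-6689324: gttcttcttaCTAATTTGAGaaccgaatta
DWF1, upstream, chr3:6882784-6882813: gagtttactgCTATAAATAGgtaaaagcaa
BSU1, upstream, chr1:862203-862232: catttgctccCTAAAAGAAGaaaaaaagaa

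The first 3 sites, those of BEE3, CPD and the gene body of PRE1, hold a canonical box. The other 7 all depart from it at its second or ninth base. Positions are counted from 1 at the 5′ end of the capitals, with the base of the box first: DWF5 carries C2T, IBH1 and the upstream site of PRE1 carry G9A, and BRL1, BES1, DWF1 and BSU1 carry both. Some also hold bases other than A or T inside the box. With these counted, BRL1 departs from the canonical form at 4 bases, BES1 and BSU1 at 3, and DWF1 and IBH1 at 2. Over the whole list, 12.7% of best sites had a canonical core, and 71.4% of the others carried C2T, G9A or both. The box and the matrix are palindromic, so that C2T on the plus strand reads as G9A on the minus strand. The matrix itself tolerates this change, since it holds C in 59.9% and T in 39.5% of sites at the second base of the box. A best site picked by score therefore tends to carry it. The first 3 peaks are also shown over 120 bases around their midpoints, with the box in capitals, to give the surroundings of the canonical boxes. The GC content of these whole peaks was 34%, 37.5% and 35.8%, against a median of 32.5% over all peaks.
BEE3, chr1:27760308-27760427: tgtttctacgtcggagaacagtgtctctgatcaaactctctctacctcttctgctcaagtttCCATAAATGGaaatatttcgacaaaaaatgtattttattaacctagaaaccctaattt
CPD, chr5:1705458-1705577: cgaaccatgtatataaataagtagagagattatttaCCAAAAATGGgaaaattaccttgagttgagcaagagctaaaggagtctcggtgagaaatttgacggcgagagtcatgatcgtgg
PRE1, chr5:15957828-15957947: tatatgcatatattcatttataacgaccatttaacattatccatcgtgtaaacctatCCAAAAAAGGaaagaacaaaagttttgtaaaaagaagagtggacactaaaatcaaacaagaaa

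SEP3-AG(IAP1) bound 9 of the 30 brassinosteroid genes (30%), namely BRL1, BSU1, BES1, DWF1, DWF5, CPD, BEE3, PRE1 and IBH1. Among all protein-coding genes, 18.0% had a peak in the same window. Long genes have long windows, so each of the 30 was also set beside the 500 protein-coding genes nearest to it in window length, of which 12.6% to 25.4% had a peak. The mean of these shares was 19.2%, which corresponds to 5.75 of 30 genes. The count of 9 lies above this background by about 3 genes, a difference for which no test was made.

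**Figure D1:**
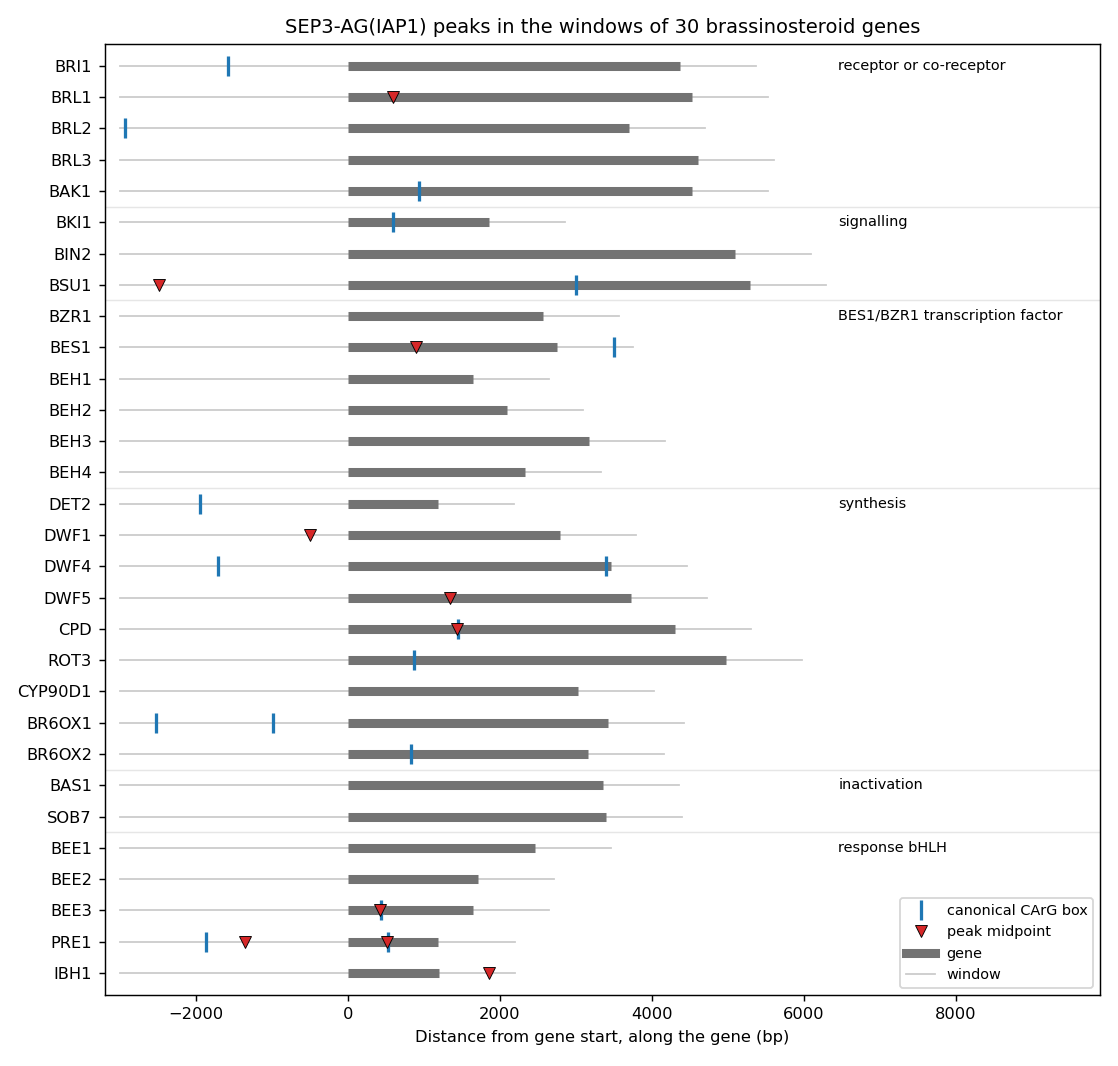
Map of the 30 genes, aligned at their starts and drawn along the direction of transcription, with distance in bp on the horizontal axis, genes as dark bars, windows as thin lines, canonical CArG boxes as blue ticks and peak midpoints as red triangles. Of the 10 peaks, 3 lie upstream, 6 within the gene and 1 downstream, and the peaks of CPD and BEE3 and the second peak of PRE1 coincide with a canonical box.

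The bHLH genes of the response held 3 of the bound genes among 5, where genes of like window length would give 0.760. BEE1, BEE2 and BEE3 encode bHLH factors that are induced early by brassinosteroid and promote growth. PRE1 and IBH1 are small HLH proteins that do not bind DNA themselves, and they act against each other on cell elongation, PRE1 as an activator and IBH1 as a repressor. BEE3, PRE1 and IBH1 had a peak and BEE1 and BEE2 had none.

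BEE3 (AT1G73830, plus strand of chromosome 1 from 27759941 to 27761588) had the strongest site of the 10. Its peak, from 27760168 to 27760567, had its midpoint in coding exon 1 of 6, 427 bp downstream of the start. The site scored 17.94 bits, more than 99.9% of all peaks, and lay 7 bp from the peak midpoint. The midpoint also falls in the window of the neighbour AT1G73820, whose start is farther away than that of BEE3.
The paralogues of BEE3 held weaker sites. The best site in the whole window of BEE1 (AT1G18400) scored 9.72 bits and lay at -183 bp from its start, and that of BEE2 (AT4G36540) scored 10.31 bits and lay at -23 bp. The nearest peaks were 25748 bp from BEE1 and 8696 bp from BEE2.

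PRE1 (AT5G39860, plus strand of chromosome 5 from 15957368 to 15958559) was the only one of the 30 genes with 2 peaks. Of all bound genes, 12.2% had 2 or more. The peak from 15957688 to 15958087 had its midpoint 520 bp downstream of the start, in the single intron of the gene, and its site scored 14.15 bits, above 88.7% of all peaks. The upstream peak, from 15955814 to 15956213, was centred at -1354 bp from the start, in intergenic DNA, and its site scored 10.28 bits, above 44.3% of all peaks, and the best core of the peak, on the 10 bases of the box alone, ranked above 80.1%. These midpoints lie 1874 bp apart, and PRE1 is the only gene whose window holds either of them. The upstream peak is among the poorest in G and C, with a GC content of 22.8%, and 2.45% of all peaks had a lower one. The second canonical box in the window of PRE1 lay in neither peak.

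At IBH1 (AT2G43060, plus strand of chromosome 2 from 17909007 to 17910210) the peak spanned 17910659 to 17911058 and was centred 649 bp past the end of the gene. This midpoint lies in the 3′ UTR of the neighbouring gene SPPL3, although the start of IBH1 is the nearest gene start. The site scored 13.37 bits, above 81.4% of all peaks, and lay 10 bp from the midpoint, despite the G9A change and 1 base other than A or T inside the box. Scored on the 10 bases of the box alone, the best core anywhere in the peak reached 7.63 bits, above 23.9% of all peaks.

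The synthesis genes held 3 bound genes among 9, where genes of like window length would give 1.85. DWF1 and DWF5 encode reductases of the sterol steps that precede brassinosteroids, CPD a cytochrome P450 that oxidises the steroid itself. No peak was found at DET2, the steroid reductase, at DWF4, the P450 of the rate-limiting side-chain hydroxylation, at ROT3 and CYP90D1, P450s that also act on the side chain, or at BR6OX1 and BR6OX2, which catalyse the last oxidations.

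CPD (AT5G05690, minus strand of chromosome 5 from 1702640 to 1706948) had a peak spanning 1705318 to 1705717, centred 1430 bp downstream of the start, in coding exon 3 of 8. The site itself lay 19 bp away, in the intron that follows, and scored 15.20 bits, above 95.1% of all peaks. CPD was the only synthesis gene with a canonical box inside a peak, and no other gene had the midpoint in its window.
DWF5 (AT1G50430, minus strand of chromosome 1 from 18681932 to 18685652) had a peak spanning 18684107 to 18684506, centred in intron 5 of a gene of 13 exons, 1345 bp downstream of the start. Its site scored 12.73 bits, above 74.9% of all peaks. The window of the neighbour AT1G50440 holds this midpoint too.
DWF1 (AT3G19820, minus strand of chromosome 3 from 6879524 to 6882315) had an intergenic peak spanning 6882619 to 6883018, centred 504 bp before the start, the only peak of the 10 within 1000 bp upstream of one of these genes. Its best site scored 6.71 bits, above 7.88% of all peaks, which is below the 7.81 bits that give 1 site per 2000 bp of the genome. On the box alone, the best core of the peak ranked above 44.2% of all peaks. With 25%, the GC content of this peak was also low, and 6.31% of all peaks had a lower one.

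Of the receptors, BRL1 alone was bound among 5 genes, where genes of like window length would give 1.05. BRL1 and BRL3 are close relatives of BRI1 that also bind the hormone, and BRL2 is a relative that acts in the vasculature. At BRL1 (AT1G55610, minus strand of chromosome 1 from 20779493 to 20784017) the peak spanned 20783217 to 20783616 and was centred in the 5′ UTR, at -43 bp from the start of the coding sequence and 600 bp downstream of the start of the gene. Its site scored 9.22 bits, above 31.7% of all peaks, and the best core of the peak on the box alone ranked above 57.1%. BRI1, BRL2, BRL3 and BAK1 had their nearest peak 35874, 12238, 63687 and 37350 bp from the gene.

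Between receptor and nucleus, BSU1 was bound and BKI1 and BIN2 were not, where genes of like window length would give 0.576 of 3. BSU1 is a phosphatase of the pathway, BKI1 an inhibitor of BRI1, and BIN2 a kinase that inactivates BZR1 and BES1. The site of BSU1 (AT1G03445, minus strand of chromosome 1 from 854410 to 859701) had the lowest score of the 10. Its peak spanned 861986 to 862385 and was centred 2485 bp before the start, in a coding exon of the neighbour AT1G03457, and AT1G03457 has the nearer start at 2186 bp. The best site scored 5.69 bits, above 3.12% of all peaks and below the threshold for a site. On the 10 bases of the box alone the best core of the peak scored 7.67 bits, above 24.7% of all peaks, and IBH1 was then the lowest of the 10.

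Of the 6 genes of the BES1/BZR1 family, BES1 was bound, where genes of like window length would give 1.10. BES1 and BZR1 are close paralogues that act largely in common, and BEH1, BEH2, BEH3 and BEH4 are their homologues. BES1 (AT1G19350, plus strand of chromosome 1 from 6688463 to 6691216) had a peak spanning 6689155 to 6689554, centred in intron 2, 892 bp downstream of the start. It was the only one of the 10 peaks with several sites over the threshold, at 8.34, 9.20 and 8.89 bits, apart from overlapping sites 1 bp apart at IBH1. With IBH1 counted, 2 of the 10 peaks held 2 or more sites, against 31.4% of all peaks. The core of the first site of BES1 is the same as that of the single site of DWF5, which scored 12.73 bits. These 2 sites differ in the bases that flank the core.
BES1, first site of the peak: cagttttattCTAAAATTGGatcgagattc
DWF5, single site of the peak: tacaggtctaCTAAAATTGGaaactttagt
On the 10 bases of the box alone, the best core in the peak of BES1 ranked above 71.7% of all peaks, the same as DWF5, against 31.4% for its best site over 16 bp. The cores of the first and second sites of BES1 lay 44 bp apart, and those of the second and the third 30 bp, counted between their inner edges. In BZR1 (AT1G75080), the best site of the window scored 8.85 bits and lay at -680 bp from the start, and the nearest peak was 7964 bp away. The windows of BEH1, BEH2, BEH3 and BEH4 had best sites of 8.67, 11.39, 9.39 and 8.69 bits and held no peak.

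Neither of the 2 genes of inactivation had a peak, where genes of like window length would give 0.414. BAS1 and SOB7 (annotated as CYP72C1) encode P450s that inactivate brassinosteroids, and their best window sites scored 8.97 and 8.12 bits, that of SOB7 being the lowest of the 30 genes.

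Over the 10 peaks, the best site scored 5.69 to 17.94 bits with a median of 11.5 bits, against a median of 10.68 bits over all 3552 peaks. A canonical box was present in 3 of the 10 peaks, against 16% of all peaks. With C or T allowed at the second and A or G at the ninth base, 8 of the 10 held a box, against 56.1%. A box with at most 1 mismatch was present in 10 of 10, against 80%. In BRL1, BES1, DWF1, BSU1 and IBH1 that box is not the best site, which had 2 to 4 mismatches. The best site lay within 25 bp of the midpoint in 8 of the 10 peaks, against 68.4% of all peaks, the exceptions being BSU1 at 32 bp and BES1 at 45 bp. These shares rest on 10 peaks and were not tested against the list. In DWF1 and BSU1 no site reached the threshold, and 84.5% of all peaks held one.

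**Figure D2:**
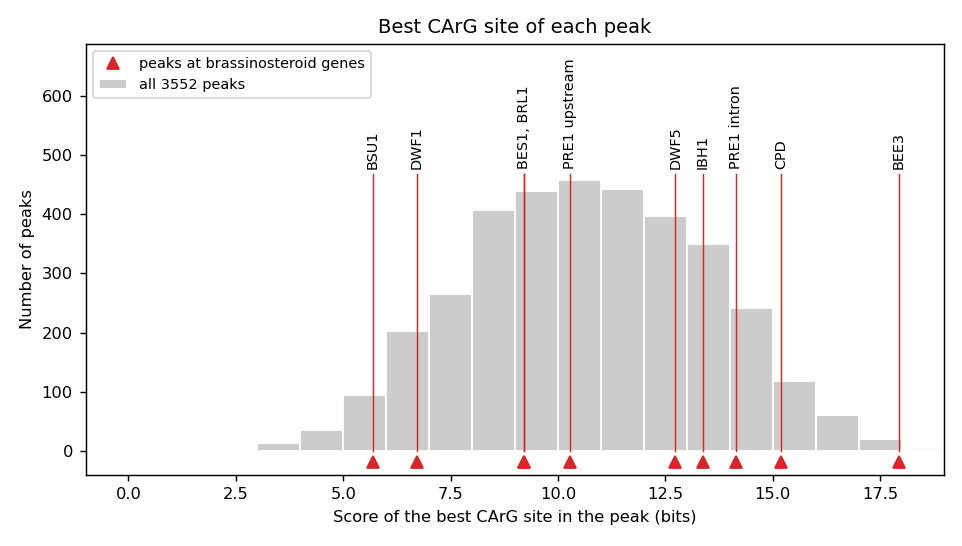
Number of peaks (vertical axis) by the score of their best CArG site in bits (horizontal axis), as grey bars for all 3552 peaks, with a red line and triangle for each of the 10 peaks at brassinosteroid genes. The 10 peaks are spread over most of the range, with BSU1 at 5.69 bits and BEE3 at 17.94 bits as the ends.

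By position, 6 of the 10 peaks had the midpoint within the gene, 3 upstream and 1 downstream, against 28.7%, 54.6% and 16.7% of the 5581 pairs of a peak and a gene whose window holds it. Among genes of window length like that of the 9 bound genes, 31.2% of such pairs lay within the gene, and the difference was not tested. The bound gene had the nearest start for 9 of the 10 peaks, against 56.4% of all such pairs, with BSU1 as the exception. In 4 of the 10, at BSU1, DWF5, BEE3 and IBH1, the midpoint also lay in the window of another gene, and over the list 51.7% of peaks lay in 2 or more windows.

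The count of bound genes changed little with the window. In a window from 1000 bp upstream to the gene end, 7 of the 30 genes (23.3%) were bound, as BSU1 and IBH1 were lost, against 9.91% of all protein-coding genes. From 5000 bp upstream to 1000 bp downstream, 10 were bound (33.3%), with DET2 added, against 23.0% of all genes. The shares of all genes in these windows were not matched for length. In the main window the 30 genes had a median length of 7164 bp, against 6078 bp over all genes.

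**Figure D3:**
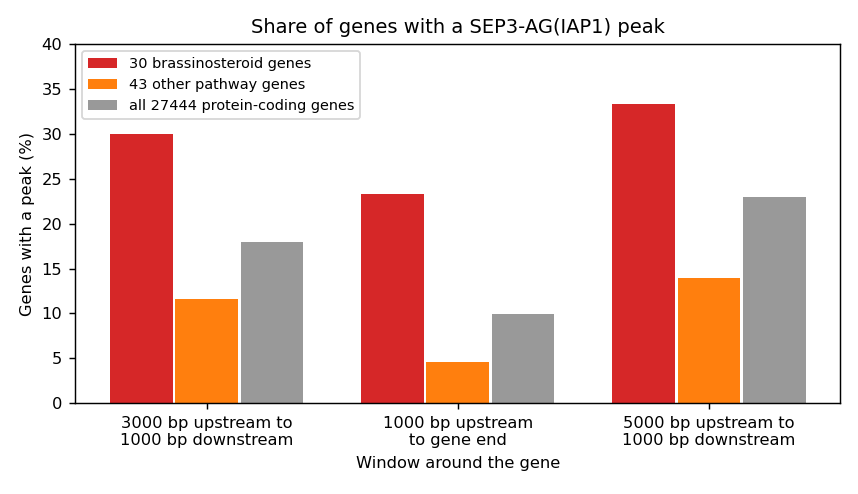
Percentage of genes with a peak (vertical axis, from 0) in 3 windows, for the 30 brassinosteroid genes in red, 43 other genes of the pathway in orange and all 27444 protein-coding genes in grey. In each window the red bar (30%, 23.3% and 33.3%) stands above the grey bar (18.0%, 9.91% and 23.0%) and the orange bar (11.6% in the first window) below it. The grey bars are not matched for window length.

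Other genes of the pathway did not share the higher count. Of 43 further genes, 5 were bound (11.6%), against 18.0% of all genes and 19.6% of genes of like window length. With the 30 genes added, 14 of 73 were bound (19.2%). The 5 were BEN1, which lowers the level of active brassinosteroids, SERK2, a relative of BAK1, BIL1 (annotated as SKdZeta), a kinase related to BIN2, MYBL2, a MYB repressor that acts with BES1, and PRE4 (annotated as BNQ3), a paralogue of PRE1. None of 6 further synthesis genes and 1 of 9 further bHLH genes had a peak, so that the share among the bHLH and synthesis genes depends on which of them are listed. Of genes of like window length, 14.8% to 25.2% had a peak for each of these synthesis genes and 12.2% to 19.6% for each of these bHLH genes. PRE4 had the best site of the 5, 15.35 bits in a peak 298 bp past the end of the gene, but the start of its neighbour SRO4 was nearer. Other genes also had the nearer start at BEN1 (AT2G45403) and at SERK2 (AT1G34200, whose 5′ UTR holds the midpoint), so that 2 of the 43, BIL1 and MYBL2, were bound when each peak was given only to the nearest start. Under that rule 8 of the 30 genes (26.7%) and 11.7% of all protein-coding genes were bound. MYBL2 had 2 peaks, of which that in its coding exon 3 held a canonical box of 12.25 bits. The other was centred 724 bp past its end, where AT1G71020 has the nearer start. The window of AT1G71020 holds both midpoints.

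The genes without a peak did hold CArG boxes. Of the 21, 9 had a canonical box in the window (42.9%), with 2 each in DWF4 and BR6OX1 and 11 boxes in all, against 31.6% of all unbound genes. Of the 9 bound genes, 5 had one, against 41.7% of all bound genes. These shares of other genes were not matched for window length, and longer windows can hold more boxes. The median window was 7170 bp in the 21 genes and 6078 bp over all genes. Over the windows of all 30 genes, 3 of 17 canonical boxes (17.6%) lay in a peak, those of CPD, BEE3 and PRE1, against 595 of 7741 (7.69%) over the whole genome, regions far from genes included. The best site in the window of DWF4 was a canonical box at -1709 bp from the start, and that of BRI1 one at -1573 bp, and both are shown because they lie in no peak.
DWF4, upstream, chr3:18819099-18819128: tatagcatacCCATATATGGatatgttaac
BRI1, upstream, chr4:18322869-18322898: cagtttcgtcCCTTTTTTGGaagttagaat
They scored 11.26 and 9.17 bits, below the 15.20, 17.94 and 14.15 bits of the canonical boxes of CPD, BEE3 and PRE1 inside peaks. Among the further genes, the canonical box inside the exon peak of MYBL2 scored 12.25 bits.

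The best site in the window scored 8.36 to 17.94 bits in the 9 bound genes, with a median of 12.73 bits, and 8.12 to 11.39 bits in the 21 others, with a median of 10.08 bits. The groups overlapped below 11.39 bits, and 6 bound genes lay above it. For BEE3, CPD, PRE1, IBH1 and DWF5 the best site of the window was the one inside the peak, which is 5 of the 9 bound genes, against 58.8% of all bound genes. In BSU1, BRL1, BES1 and DWF1 a better site lay elsewhere in the window, outside any peak. In all unbound genes of the genome the median was 10 bits, and 23.2% had a site above 11.39 bits. As the matrix was fitted to peaks, a higher score in bound genes is in part how the score was made, although the chromosome of each gene was left out of its matrix.

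**Figure D4:**
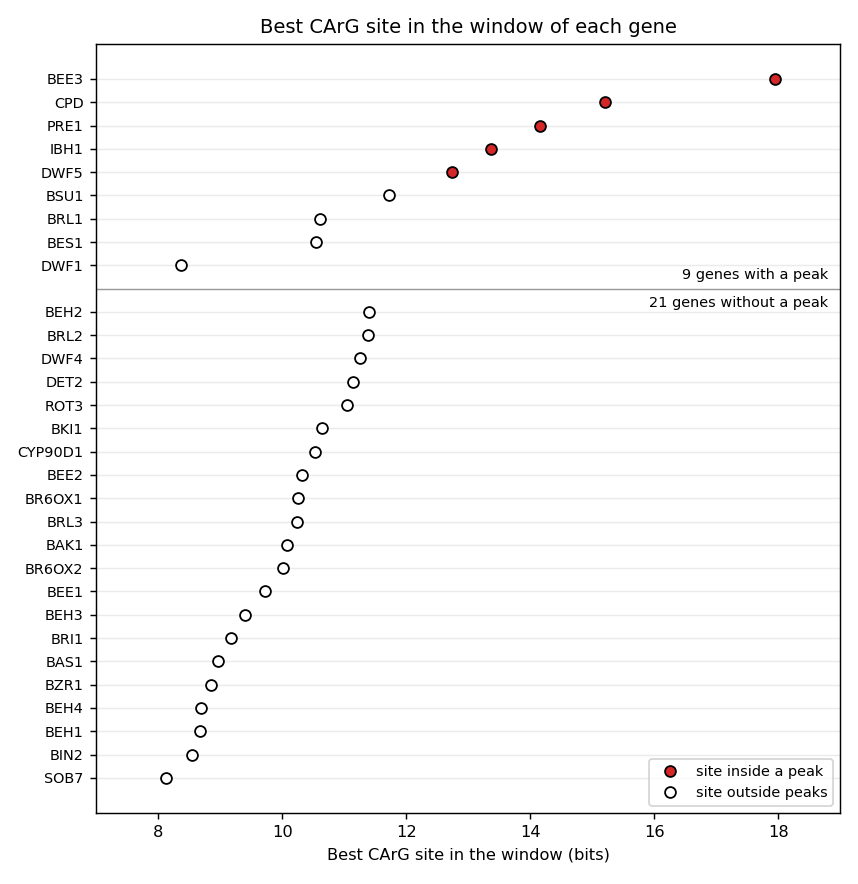
Score in bits (horizontal axis) of the best CArG site in the window of each of the 30 genes, with the 9 genes that have a peak above the line and the 21 without below it, filled where the site lies inside a peak and open where it does not. The 5 highest sites, from DWF5 at 12.73 bits to BEE3 at 17.94 bits, lie inside peaks, and no gene without a peak exceeds 11.39 bits.

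In the genes without a peak, the nearest peak midpoint lay 3686 to 63687 bp from the gene, with a median of 12238 bp, and within 10000 bp in 9 of the 21 genes (42.9%). Over all unbound genes the median was 13263 bp, and 38.9% had a peak within 10000 bp. DET2 was nearest to the edge of the window, with a peak 3686 bp upstream of its start. SOB7, DWF4 and BAS1 had one 3718, 3886 and 4493 bp past the end of the gene, and BEH1, BIN2, BKI1, BZR1 and BEE2 one 6416 to 8696 bp away. Among the bound genes, the peaks nearest to an edge of the window were those of IBH1, 351 bp inside the downstream edge, and BSU1, 515 bp inside the upstream edge.

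Motifs of the BES1/BZR1 and bHLH proteins were looked for in the 10 peaks on both strands. CGTGCG and CGTGTG, forms of the brassinosteroid response element bound by BZR1, were counted separately. CGTGCG was in none of the 10 peaks, against 1.21% of all peaks, and CGTGTG was in the upstream peak of PRE1 only, against 5.91%. The G-box, CACGTG, was in the peak of IBH1, against 5.18%. The E-box, CANNTG, which includes the G-box, was in 8 of the 10 peaks, those of CPD and BEE3 lacking it, against 72.7% of all peaks. These counts describe letters in windows of 400 bp and say nothing of binding by those factors.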

How the data were processed

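Seq-DAP-seq reads of the SEP3-AG(IAP1) complex came from 3 replicates. Quality was examined by the authors with FastQC and adaptors were trimmed with NGmerge before mapping with Bowtie2 to TAIR10 lacking the organelles, and SAMtools was used to drop duplicates. MACS2 calls of each replicate, made over the input DNA, were merged into a consensus by MSPC, after which peaks with several maxima were split and each was set to 400 bp around its maximum. No tool version is stated in the sources at hand. Only positions are in the deposited list. The strictness of calling and joining decides which genes appear bound, and a weak site can fall below it.

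Genome and genes were those of the NCBI reference TAIR10.1, whose nuclear sequence is that of TAIR10, and all peaks ended within its chromosomes. Coordinates count from 1. Expectation maximisation was used to fit the palindromic matrix of 16 bp (30 iterations, pseudocount 0.5, 0 or 1 site per peak), starting from a canonical box with TT and AA flanks, without the chromosome scored. The pool of like genes held 500 genes per gene. Of the 43 further genes, 41 matched by name and the rest by locus tag. The 30 genes, the lists and the rule for naming genes (all 30, every peak in their windows, bound genes of the further list, nearest neighbours, the best site of each peak) were chosen with earlier results of these data known. The sites of DWF4 and BRI1 and the first site of BES1 were chosen once their values had been seen. The matrix fit, the tie of peaks to gene windows and the search for boxes were tested on simulated data, and the other steps were not. Alternatives covered the window, the tie of peak to gene, the pool of like genes, the form of the box and the matrix. Python 3.11.15, numpy 2.4.6, pandas 2.3.3, scipy 1.17.1 and matplotlib 3.10.9 were used.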

Additional observations from a re-analysis of the deposited data

How the results depend on the processing

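Under 8 other ways to tie a peak to a gene, 7 to 10 of the 30 genes were bound, and the changes concerned BSU1, IBH1 and DET2 only. Matching genes on GC content as well as window length raised the share of like genes with a peak to 21.2%, against 19.2%, while the other pools gave 19.2% to 19.7%. With at most 1 mismatch, 10 of the 10 peaks held a CArG box, and with C or T at the second and A or G at the ninth base 8 did, against 3 for the canonical form. Over all peaks, too, these looser forms were more frequent than the canonical one. From 1000 bp upstream to the gene end, 2 of the 43 further genes were bound, against 5, and likewise 2 with each peak given to the nearest start. Of all protein-coding genes, 9.91% and 11.7% were bound under these 2 settings, against 18.0% in the main window. The median rank of the 10 best sites among all peaks was 59.6%, and 59.6% to 71.7% with other matrices, but single peaks moved more on the 10 bp core alone: IBH1 to 23.9%, against 81.4%, and DWF1 to 44.2%, against 7.88%. The fit started without flanks gave the same score in every one of the 10 peaks to 2 decimals. No replicate could be left out, no stricter peak threshold could be set and no paired analysis was possible because the list combines the replicates and gives no score. A gene without a peak may have sites below the authors' threshold.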

Other observations

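High-scoring CArG sites without a peak were found among the further genes of the pathway. The window of BSL2, a phosphatase related to BSU1, held a site of 14.72 bits, that of CES, a bHLH factor related to the BEE proteins, one of 14.38 bits, that of BIM3, a bHLH relative of the partners of BES1, one of 13.83 bits, and that of PRE2 (annotated as BNQ2), a paralogue of PRE1, one of 13.70 bits. Their nearest peaks lay 11108, 35236, 11709 and 5932 bp from the gene. Over all genes, 40.9% of the 5669 with a site of 12 bits or more in the window had a peak, against 18.0% of all protein-coding genes. The higher share is in part how the score was made, as the matrix was fitted to peaks. Even so, a high score alone did not go with a peak in most genes. In the PRE family, PRE1 and PRE4 had a peak, and the best window sites of PRE3 (annotated as BS1), PRE5 and PRE6 (annotated as KDR) scored 9.90, 9.47 and 8.77 bits. These genes were picked after their values were seen.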
